A study of Mus musculus with 6 samples.

Results

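The semaphorins, plexins and neuropilins were measured in LSC GFP+ and LSC GFP- cells of the neonatal mouse prostate. They were taken as all probes that the array design assigns to a gene named Sema, a digit and a letter, to a gene named Plxn, a letter from a to d and a digit, or to Nrp1 or Nrp2. This rule gave 31 genes, of 36163 genes and transcripts on the array, with 41 probes. There were 20 semaphorins, 9 plexins and 2 neuropilins, and 10 of the genes had more than 1 probe.

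Both populations were sorted from prostates of 6-day-old male FVB/N mice that carry the transgene Tg 11.5kb-GFP, in which GFP is driven by the s-SHIP promoter, and the mice received no treatment. The sorted fraction was Lin- Sca-1+ CD49f+ (LSC), the basal and stem cell fraction of the prostate epithelium, from which cells with Ter119, CD31 or CD45 had been gated out, and it was split into cells with and without GFP. Each population was represented by 3 independent samples, with 1 array per sample, and nothing says how many animals went into each. GFP in these mice reports the activity of a promoter and is not itself a test of stem cell function.

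Semaphorins are guidance proteins that are either secreted or held in the membrane. The class 3 semaphorins are secreted and mostly signal through complexes in which a neuropilin binds the ligand and a plexin passes the signal into the cell, whereas most of the membrane semaphorins bind plexins directly. They were first known for the steering of growing axons and also act on cell adhesion, vessels and the branching of epithelial organs, and neuropilins bind ligands of the VEGF family as well.

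The populations were compared as log2 signals relative to the 75th percentile of each array, so that a value of 0 is the 75th percentile and -1 is 50 percent of it. A gene was represented by its tested probe with the highest mean signal, and a difference is LSC GFP+ minus LSC GFP-. At a threshold of 0.05 on the unadjusted p, 2 of the 28 genes that could be tested were higher in LSC GFP+ cells, the ligands Sema3a and Sema3d, against 3.39% of all 25545 genes tested. The receptor genes Nrp1 and Plxnc1 and the ligand genes Sema3b and Sema5b were lower, against 4.29% of all genes. These are 7.14% and 14.3% of the 28 genes, and the shares were not tested against each other. Plxnc1 and Sema5b, with Sema4f, entered the test only through the LSC GFP- arrays, where they were above background, so their direction was set in part by that filter. Among the 25 genes above background on all 6 arrays, 2 were higher, against 3.25% of the 23723 such genes, and 2 lower, against 3.55%.

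None of the 28 genes passed after Benjamini-Hochberg adjustment over all 37005 probes tested with limma. The smallest adjusted p was 0.136, and only 1 probe of the whole array, or 0.0027%, passed the adjusted threshold. An unadjusted limma p under 0.05 was reached by 9 of the 34 tested probes of these genes, against 2925 of all 37005. Some of the 9 entered the test through 1 population only. Signs were balanced, with 14 differences above and 14 below 0, and the median difference was 0.01, against -0.01 over all genes. The p values measure the spread between these 3 samples of each population, and 3 against 3 cannot give an exact permutation p below 0.1.

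The populations did not overlap in 2 genes that were higher in LSC GFP+ cells, Sema3a and Sema3d, against 6.51% of all genes. They did not overlap in 5 genes that were lower, Nrp1, Plxnc1, Sema3b, Sema5b and Sema6b, against 5.37%. Same-numbered samples of both populations deviated together, as given in the description of the processing, and with the replicate number as a block 7 genes were lower, against 7.72% of all genes, and 2 higher, against 6.52%. The genes added by the block were Nrp2, Plxna2 and Sema4f.

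**Figure D1:**
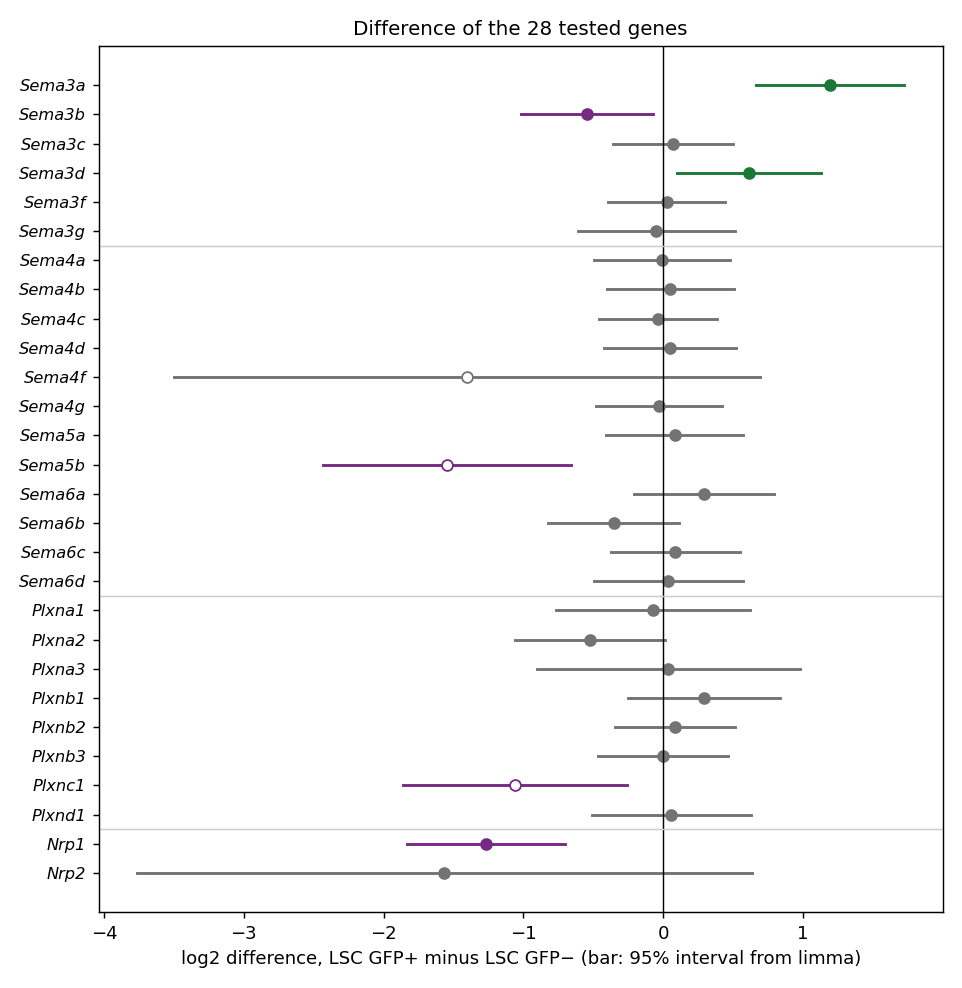
Log2 difference between LSC GFP+ and LSC GFP- cells for the 28 tested genes, with class 3 semaphorins at the top, then other semaphorins, plexins and neuropilins. Points are estimates, bars the 95% intervals from limma, open points genes not above background on all 6 arrays, green and purple genes higher or lower at an unadjusted p under 0.05. Sema3a lies farthest to the right at 1.19, and Nrp1, Nrp2, Sema4f, Sema5b and Plxnc1 lie left of -1.

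The sequences before the transcription starts are shown for 5 of the 6 genes that were higher or lower and for Nrp2, since genes that move in one direction may be read beside their promoters. Sema3b, the other lower gene, had no window in the table used. The 250 bases before the start were taken from RefSeq on GRCm38.p6, 5′ to 3′ on the strand of the gene, and a window was found for 26 of the 31 genes. Capitals mark GGGCGG or its complement CCGCCC, the GC box, on either strand.
Sema3a, chr5:13396534-13396783, plus strand: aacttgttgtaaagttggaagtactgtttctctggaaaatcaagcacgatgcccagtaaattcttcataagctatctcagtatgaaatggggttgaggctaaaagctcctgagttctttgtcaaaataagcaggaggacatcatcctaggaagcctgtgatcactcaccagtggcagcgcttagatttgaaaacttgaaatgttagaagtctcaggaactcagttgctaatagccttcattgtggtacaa
Sema3d, chr5:12382916-12383165, plus strand: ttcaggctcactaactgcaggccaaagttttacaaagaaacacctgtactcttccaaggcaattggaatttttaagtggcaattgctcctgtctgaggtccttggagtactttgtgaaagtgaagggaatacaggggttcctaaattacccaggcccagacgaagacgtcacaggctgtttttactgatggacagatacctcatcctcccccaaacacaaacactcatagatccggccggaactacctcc
Nrp1, chr8:128358823-128359072, plus strand: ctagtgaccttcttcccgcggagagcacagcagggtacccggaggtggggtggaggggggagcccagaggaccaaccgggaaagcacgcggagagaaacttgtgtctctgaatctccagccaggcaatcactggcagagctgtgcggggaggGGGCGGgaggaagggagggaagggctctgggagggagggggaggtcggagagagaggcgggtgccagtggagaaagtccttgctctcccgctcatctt
Nrp2, chr1:62703067-62703316, plus strand: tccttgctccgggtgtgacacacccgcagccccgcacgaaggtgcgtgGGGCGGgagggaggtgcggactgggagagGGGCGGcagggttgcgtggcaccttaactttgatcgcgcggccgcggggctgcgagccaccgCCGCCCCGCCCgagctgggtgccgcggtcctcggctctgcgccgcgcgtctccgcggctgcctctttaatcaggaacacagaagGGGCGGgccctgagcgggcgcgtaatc
Sema5b, chr16:35541112-35541361, plus strand: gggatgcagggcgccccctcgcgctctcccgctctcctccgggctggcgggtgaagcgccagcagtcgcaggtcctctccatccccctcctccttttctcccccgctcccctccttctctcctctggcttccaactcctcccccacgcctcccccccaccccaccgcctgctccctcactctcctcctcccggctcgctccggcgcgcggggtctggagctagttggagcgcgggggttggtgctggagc
Plxnc1, chr10:94944846-94945095, minus strand: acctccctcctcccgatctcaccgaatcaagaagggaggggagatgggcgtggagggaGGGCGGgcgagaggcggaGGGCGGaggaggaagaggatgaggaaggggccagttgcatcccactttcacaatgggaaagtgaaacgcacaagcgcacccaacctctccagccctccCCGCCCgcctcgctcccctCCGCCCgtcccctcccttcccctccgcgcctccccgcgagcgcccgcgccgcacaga

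The windows of the higher genes Sema3a and Sema3d had a GC content of 40.8% and 46.8% and held 2 and 4 CpG. Those of 3 of the 4 lower genes, Nrp1, Sema5b and Plxnc1, had 64.4%, 72.0% and 68.8%, with 11, 19 and 22 CpG, and the window of Nrp2 had 72.4% with 32 CpG. Over all 32851 windows of the table the median GC content was 52.4% and the median CpG count 6. Windows of tested genes that did not pass ranged from 45.2% before Sema6d to 78.4% before Sema3c. A link of GC content to the differences was not tested. The GC box occurred 1 time before Nrp1, 5 times before Nrp2 and 4 times before Plxnc1, and it was not matched before Sema3a, Sema3d or Sema5b.

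Over all windows 32.7% held a GC box, and of the 37 windows of the 26 genes, some of which have several starts, 27 did. The letters CCAAT, on either strand, were found in 7 of these 37 windows and in 33.8% of all, the window of Sema3d among the 7, and TATAAA, on either strand, in 0 of 37 and in 12.4% of all. Matches of different motifs overlapped in 1 of the 37 windows. These matches describe the letters only.

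The class 3 semaphorins, the secreted ligands of the neuropilins, held both genes that were higher in LSC GFP+ cells. Of 7 genes 6 were tested, 2 were higher, 1 was lower and 3 did not pass. These shares of 33.3% and 16.7%, against 3.39% and 4.29% of all genes, rest on few genes and were not tested. Sema3a, a ligand of neuropilin-1, was measured by a probe at chr5:13473453-13473512 (mm9, plus strand, as are all probe positions here). Its log2 signals were -0.48, -0.30 and -0.35 in LSC GFP+ samples 1, 2 and 3 and -1.32, -1.42 and -1.97 in LSC GFP- samples 1, 2 and 3. All 3 LSC GFP+ arrays lay above all 3 LSC GFP- arrays, and the LSC GFP+ arrays lay close together. The difference was 1.19 ± 0.23 (SE), or 2.29-fold, with a limma p of 0.000846 and an adjusted p of 0.136.

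A second Sema3a probe at chr5:13602462-13602521 was dimmer and was above background on 2 of the 3 LSC GFP- arrays. It read -2.99, -3.13 and -2.32 in LSC GFP+ samples and -3.88, -3.56 and -3.48 in LSC GFP- samples. This probe entered the test only through the LSC GFP+ arrays, so that its direction was set in part by the filter. The groups did not overlap, and the difference was 0.83 ± 0.26 (SE) with an unadjusted limma p of 0.0144. The difference of Sema3a kept its sign and its p under 0.05 in all 17 alternatives, between 0.90 and 1.32.

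Sema3d, another secreted semaphorin, which lies near Sema3a on chromosome 5, was measured at chr5:12586981-12587040. It read -0.95, -0.65 and -0.57 in LSC GFP+ samples 1 to 3 and -1.03, -1.58 and -1.39 in LSC GFP- samples 1 to 3. The groups did not overlap, but replicate 1 of LSC GFP- cells came within 0.09 of replicate 1 of LSC GFP+ cells, whereas replicates 2 and 3 differed by 0.93 and 0.83. The difference was 0.61 ± 0.22 (SE), 1.53-fold, with a limma p of 0.0257 and an adjusted p of 0.493. Its p rose above 0.05 when LSC GFP+ replicate 2 or 3 or LSC GFP- replicate 2 or 3 was left out, with differences of 0.58, 0.54, 0.49 and 0.58 in this order, and it was 0.37 with normexp background correction.

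Sema3c and Sema3e lie on the same stretch of chromosome 5. Sema3c, which also binds neuropilins, differed by 0.07 on its brightest probe and by 0.28 on the other, with unadjusted limma p values of 0.726 and 0.289. Sema3e, the class 3 semaphorin that binds plexin-D1 without a neuropilin, did not rise well above background on the 6 arrays and was not tested.

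Sema3b, at chr9:107500686-107500745 on the minus strand, went the other way. Its signals were 1.76, 1.53 and 1.26 in LSC GFP+ samples and 2.03, 2.15 and 1.996 in LSC GFP- samples. Every LSC GFP+ array was below every LSC GFP- array, by 0.28, 0.62 and 0.74 within replicates 1, 2 and 3. The difference was -0.55 ± 0.20 (SE), or 1.46-fold lower, with a limma p of 0.029 and an adjusted p of 0.514. The p exceeded 0.05 without LSC GFP- replicate 1 or 2 or without LSC GFP+ replicate 2 or 3, with differences of -0.56, -0.50, -0.55 and -0.42.

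Sema3f, a ligand of neuropilin-2 that lies near Sema3b on chromosome 9, differed by 0.02, with a 95% interval from -0.39 to 0.44, and read between 0.28 and 0.47 on the 6 arrays. Both probes of Sema3g had a difference below 0, but of unlike size. The brighter one, at chr14:32042510-32042569, differed by -0.05 with an unadjusted limma p of 0.844, and its groups overlapped.

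The dimmer Sema3g probe, at chr14:32043435-32043494, read -4.11, -3.74 and -3.67 in LSC GFP+ samples and -2.29, -3.33 and -3.10 in LSC GFP- samples. Its groups did not overlap, LSC GFP- replicate 1 was the highest of the 6, and it was above background on all arrays. The difference was -0.93 ± 0.30 (SE) with an unadjusted limma p of 0.0147 and an adjusted p of 0.403. The size of a Sema3g difference, and whether it passed the unadjusted threshold, thus depended on the probe.

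**Figure D2:**
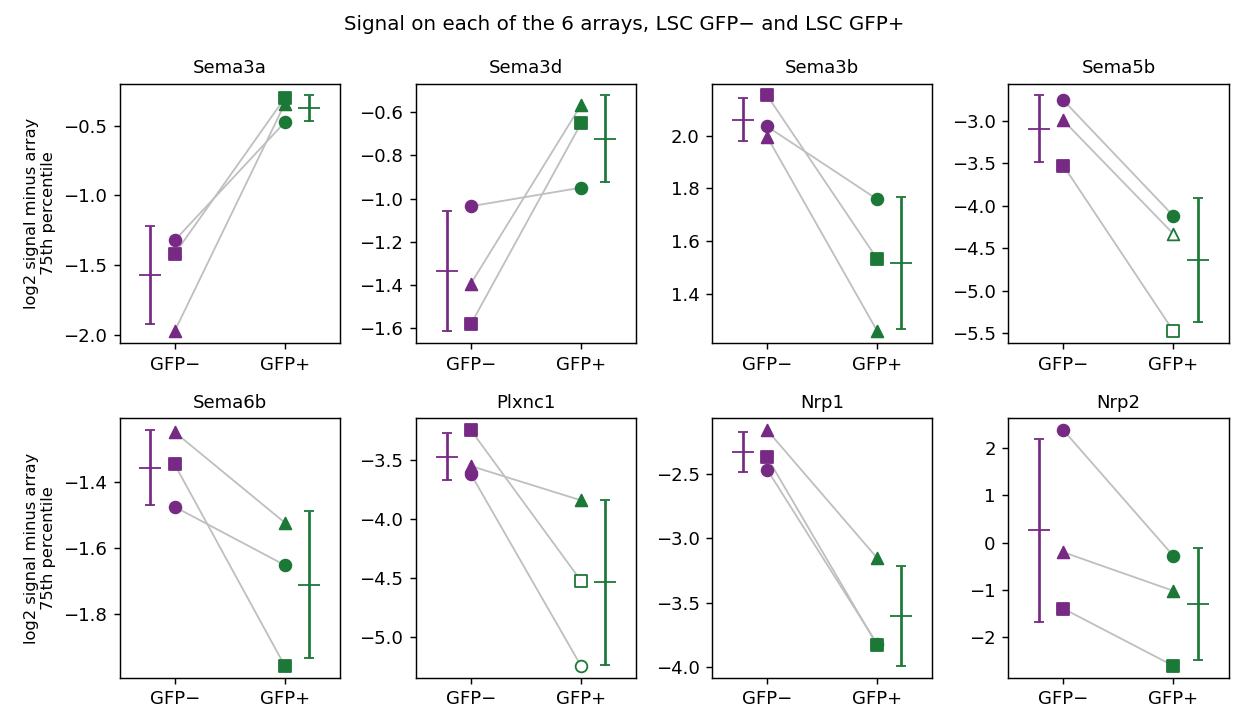
Log2 signal relative to the 75th percentile of the array for 8 genes on each of the 6 arrays, with LSC GFP- in purple at the left and LSC GFP+ in green at the right of each panel. Circles, squares and triangles are replicates 1, 2 and 3 with grey lines between equal numbers, open symbols are not well above background, and the bars beside them show mean and SD of the 3 samples. Sema3a and Sema3d are higher in LSC GFP+ samples without overlap, 5 genes are lower without overlap, and in Nrp2 the populations overlap while every grey line falls.

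Of the 13 semaphorins outside class 3, most of them held in the membrane, 12 were tested. Of these 1, or 8.33%, was lower, against 4.29% of all genes, and 11 did not pass. Sema5b, a transmembrane semaphorin with thrombospondin repeats, was the gene that was lower, at chr16:35663660-35663719. Its signals were -4.12, -5.47 and -4.33 in LSC GFP+ samples and -2.76, -3.53 and -3.00 in LSC GFP- samples. The groups did not overlap, and the probe was above background on all 3 LSC GFP- arrays but on 1 of 3 LSC GFP+ arrays.

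The Sema5b difference was -1.55 ± 0.38 (SE), with a limma p of 0.00385 and an adjusted p of 0.236. Since LSC GFP+ signals lay near background, the size of this difference is uncertain, and it ranged from -1.81 to -0.54, the last with normexp background correction, over 16 alternatives, all with a p under 0.05. The other Sema5b probe was not above background on any array. Sema5a, its closest relative, differed by 0.08 and was above background throughout.

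Sema6b, a transmembrane ligand of A-type plexins, did not overlap between the populations but did not pass the test. It read -1.65, -1.96 and -1.52 in LSC GFP+ samples and -1.48, -1.35 and -1.25 in LSC GFP- samples. The gap between the nearest arrays of both groups was small beside the spread within LSC GFP+ samples. The difference was -0.36 ± 0.20 (SE) with an unadjusted limma p of 0.118, and it was -0.23 without LSC GFP+ replicate 2. Its relatives Sema6a, Sema6c and Sema6d differed by 0.29, 0.09 and 0.04, and a second Sema6d probe by 0.33, none with a p under 0.05. The Sema6d probes averaged 8.12 and -1.46 over the arrays, so a level for Sema6d depends on the probe.

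Sema4f, a membrane semaphorin, varied more between replicates than between populations. It read -3.22, -5.80 and -3.62 in LSC GFP+ samples, where 2 of 3 arrays were above background, and -0.95, -4.11 and -3.38 in LSC GFP- samples. LSC GFP- replicate 1 stood far above the others, and the groups overlapped. The difference was -1.40 ± 0.91 (SE) with a limma p of 0.16, but LSC GFP+ was the lower sample of each pair, by 2.27, 1.70 and 0.24, and the fit with the replicate block gave a limma p of 0.0177 and an adjusted p of 0.228. The difference was -0.47 without LSC GFP- replicate 1, -0.61 without LSC GFP+ replicate 2 and -0.51 with normexp background correction.

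The other class 4 semaphorins were measured above background on all arrays and did not pass. Sema4a, Sema4b, Sema4c, Sema4d and Sema4g, of which Sema4d is the ligand of plexin-B1 and Sema4c a ligand of plexin-B2, differed by -0.01, 0.05, -0.04, 0.05 and -0.03. Their 95% intervals all lay between -0.50 and 0.52, so a larger difference than that was outside the interval of each of these 5 genes. Sema7a, a membrane-anchored ligand of plexin-C1, stayed at background on all 6 arrays and was not tested.

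The plexins are the receptors that carry the signal across the membrane, and 8 of their 9 genes were tested. Of these 1, or 12.5%, was lower and 0 higher, against 4.29% and 3.39% of all genes, and 7 did not pass. Plxnc1, the receptor of Sema7a, was the lower gene, at chr10:94253879-94253938 on the minus strand. It read -5.24, -4.52 and -3.84 in LSC GFP+ samples and -3.62, -3.25 and -3.55 in LSC GFP- samples. The groups did not overlap, although LSC GFP+ replicate 3, the only array of its group above background, lay within 0.29 of its partner.

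The Plxnc1 difference was -1.06 ± 0.35 (SE), with a limma p of 0.0158 and an adjusted p of 0.411. With normexp background correction it was -0.19, with a p of 0.258, and without LSC GFP- replicate 2 it was -0.95, with a p of 0.0504. A second Plxnc1 probe was above background on 1 of the 6 arrays and was not tested.

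Plxna2, a receptor of class 3 and class 6 semaphorins, read -2.23, -1.62 and -2.13 in LSC GFP+ samples and -1.34, -1.42 and -1.66 in LSC GFP- samples. LSC GFP+ was the lower of each pair, by 0.89, 0.20 and 0.48, but LSC GFP+ replicate 2 lay among the LSC GFP- arrays. The difference was -0.52 ± 0.23 (SE), with a limma p of 0.0536, and of 0.0339 with the replicate number as a block, where the adjusted p was 0.291. The p was also under 0.05 in 4 other alternatives, 0.0173 without LSC GFP+ replicate 2, with a difference of -0.71, 0.0401 with normexp background correction, with -0.38, 0.0485 with the filter on all 6 arrays and 0.0492 with the mean over probes. Plxna1 and Plxna3 differed by -0.08 and 0.04.

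Plxna4 was not above background on any LSC GFP+ array and was above it on 2 of 3 LSC GFP- arrays, so it was not tested. Its brighter probe read -4.55, -6.29 and -4.26 in LSC GFP+ samples and -1.72, -4.27 and -4.38 in LSC GFP- samples. As with Sema4f and Nrp2, LSC GFP- replicate 1 was the highest array. LSC GFP- replicates 2 and 3 lay within the range of the LSC GFP+ arrays.

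Among the B and D plexins, Plxnb1, the receptor of Sema4d, differed by 0.29 (95% interval -0.25 to 0.83). Plxnb2, Plxnb3 and Plxnd1, a receptor used by Sema3e, differed by 0.08, -0.001 and 0.06. The second Plxnd1 probe differed by -0.35, with an unadjusted limma p of 0.179, and neither probe passed.

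**Figure D3:**
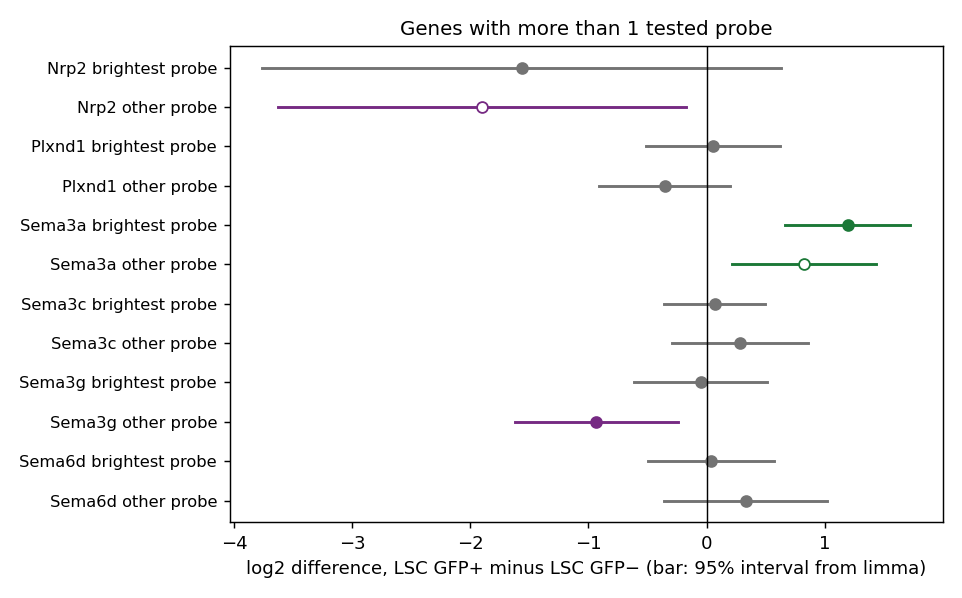
Log2 difference between LSC GFP+ and LSC GFP- cells for the 6 genes with more than 1 tested probe, with the brightest probe of each gene above the other. Points are estimates, bars 95% intervals from limma, open points probes not above background on all 6 arrays, and green and purple mark an unadjusted p under 0.05. The probes of Sema3a and of Nrp2 lie on the same side of 0, and the probes of Sema3g differ, at -0.05 and -0.93.

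The neuropilins, which bind class 3 semaphorins and VEGF and hand them to plexins or VEGF receptors, read lower in LSC GFP+ samples in all 3 pairs. Nrp1, the receptor of Sema3a, was measured at chr8:131026650-131026709. Its signals were -3.82, -3.83 and -3.15 in LSC GFP+ samples and -2.47, -2.37 and -2.16 in LSC GFP- samples, above background on all 6 arrays. The groups did not overlap.

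The Nrp1 difference was -1.27 ± 0.24 (SE), or 2.41-fold lower, with a limma p of 0.000883 and an adjusted p of 0.138. It was -1.35, -1.46 and -0.99 within replicates 1, 2 and 3. All 17 alternatives kept its sign and a p under 0.05, with differences from -1.49 to -0.59, the last with normexp background correction. Sema3a and its receptor Nrp1 thus moved in opposite directions, Sema3a higher and Nrp1 lower in LSC GFP+ samples.

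Nrp2, the receptor of Sema3f, had probes for different transcripts. The brighter one, at chr1:62843298-62843357, read -0.28, -2.61 and -1.02 in LSC GFP+ samples and 2.38, -1.40 and -0.20 in LSC GFP- samples. The groups overlapped because the replicates differed more than the populations, with replicate 1 the highest and replicate 2 the lowest of each. The difference was -1.57 ± 0.95 (SE) with a limma p of 0.139 and an adjusted p of 0.837. It was -0.50 without LSC GFP- replicate 1, -0.91 without LSC GFP+ replicate 2 and -2.40 without LSC GFP- replicate 2, the last with a p of 0.0275.

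Within pairs the brighter Nrp2 probe was lower in LSC GFP+ samples by 2.67, 1.21 and 0.82, and the fit with the replicate block gave a limma p of 0.00893 and an adjusted p of 0.174. The other probe, at chr1:62865129-62865188, read -2.37, -3.99 and -4.23 in LSC GFP+ samples, where 1 of 3 arrays was above background, and 0.01, -2.74 and -2.14 in LSC GFP- samples. Its difference was -1.90 ± 0.75 (SE), with an unadjusted limma p of 0.0349, and 0.000621 with the block. It entered the test only through the LSC GFP- arrays, so that its direction was set in part by the filter. The probes share their samples, and each was lower in LSC GFP+ samples in all 3 pairs.

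Most smooth muscle markers and part of the stromal markers were lower in LSC GFP+ cells, as were the mean signals of the neuropilins, Plxnc1 and Sema5b. Of 9 smooth muscle and pericyte markers tested, 7, or 77.8%, were lower in LSC GFP+ cells and 0 higher, against 4.29% and 3.39% of all genes. The median difference was -1.51, and the lower ones included Acta2, smooth muscle actin, by -2.13 and Des, desmin, by -1.68. The summed signal of this list, in units of the 75th percentile, was 401.1 to 502.7 in LSC GFP+ and 375.7 to 509.7 in LSC GFP- samples, but Mcam alone gave 92.3% to 98.2% of it, and the rest summed to 7.16 to 10.8 and 20.9 to 39.3. Lmod1 was not above background on any array.

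Of 11 stromal markers tested, 5, or 45.5%, were lower, including Col1a1 by -2.18 and Pdgfra, a fibroblast receptor, by -2.36. Dcn and Fbln1, or 18.2%, were higher. Over all genes 4.29% were lower and 3.39% higher. Their summed signal was 32.3 to 38.4 in LSC GFP+ and 33.4 to 75.8 in LSC GFP- samples. Of 11 glial and neuronal markers only 1, or 9.09%, was lower, Ncam1 by -1.25, against 4.29% of all genes. All 11 differences were negative. Fewer cells of a type and less RNA per cell cannot be told apart in such bulk samples, and the part of these other cells in the lower signals of Nrp1, Nrp2, Plxnc1 and Sema5b was not tested.

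Some neuronal genes, picked after their values were seen, varied between replicates in the same order as Nrp2. Stmn2, a neuronal microtubule regulator, read 2.80, -2.03 and 0.08 in LSC GFP- samples 1, 2 and 3, and 0.27, -6.29 and -1.03 in LSC GFP+ samples. Syp, a synaptic vesicle protein, read 3.06, 0.18 and 1.12 in LSC GFP- and 0.91, -0.10 and 0.31 in LSC GFP+ samples. Replicate 1 was the highest and replicate 2 the lowest in both, as for Nrp2 and Sema4f. Other genes of the list had other orders, such as Elavl4, a neuronal RNA-binding protein, at 6.94, 7.10 and 6.23 in LSC GFP- samples, and Ncam1, an adhesion protein, at 1.17, 1.51 and 2.10 in LSC GFP+ samples. The summed glial and neuronal signal was 256.5 to 365.5 in LSC GFP- and 259.7 to 335.5 in LSC GFP+ samples. Snap25 gave 51.7% to 66.3% of that sum, S100b was above background on 1 LSC GFP+ and 2 LSC GFP- arrays, and the part of neuronal RNA in the Nrp2 and Sema4f values was not tested.

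**Figure D4:**
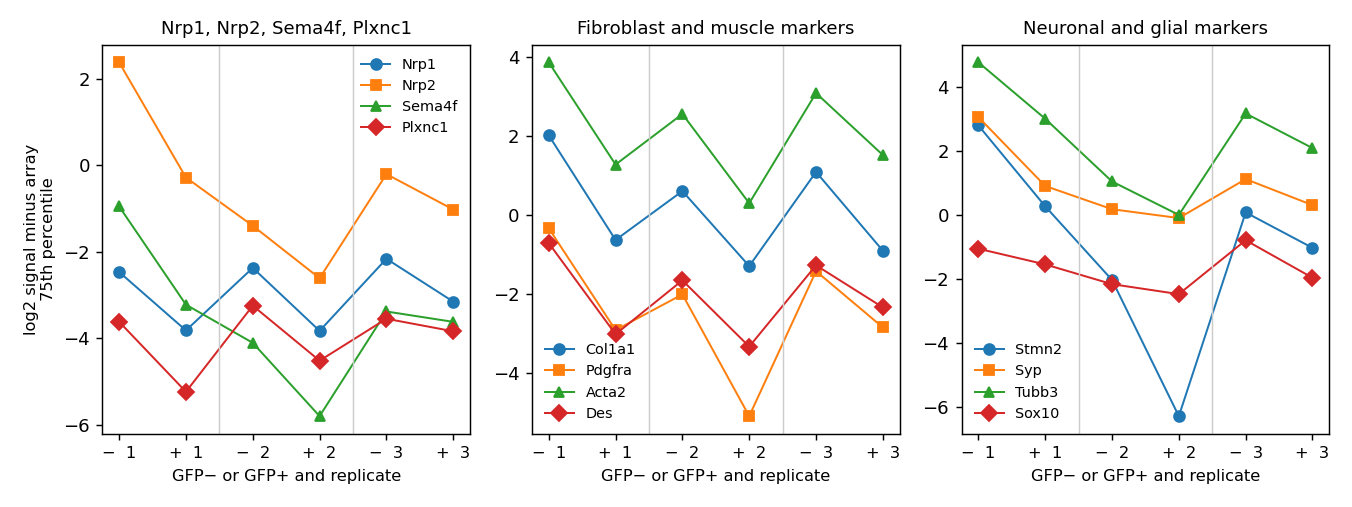
Log2 signal relative to the 75th percentile of the array on the 6 arrays, ordered by replicate with LSC GFP- (minus) before LSC GFP+ (plus), for 4 genes of the family at the left, 4 fibroblast and muscle markers in the middle and 4 neuronal and glial markers at the right. Grey lines part the replicates. Nrp1, Nrp2, Sema4f, Plxnc1 and the markers shown are lower in LSC GFP+ than in LSC GFP- samples of the same number, and Nrp2, Sema4f, Stmn2 and Syp share the order of the replicates.

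Most basal markers were higher in LSC GFP+ cells, as were Sema3a and Sema3d. Of 12 basal epithelial markers tested, 8, or 66.7%, were higher and 0 lower, against 3.39% and 4.29% of all genes. Krt14, a basal keratin, was higher by 1.18, whereas Trp63, Itga6, Itgb4 and Dst did not pass. The summed signal was 240 to 254.8 in LSC GFP+ and 177.2 to 187.1 in LSC GFP- samples. Trp63, which differed by 0.11, gave 39.6% to 54.5% of it, and the rest summed to 125.6 to 153.4 and 80.6 to 93.8. Dsg3 was the basal marker not above background on any array. Of 10 luminal markers 2, or 20%, were higher and 1, or 10%, lower, with a summed signal of 193.9 to 270.9 against 202.3 to 283.3. The part of basal content in the Sema3a and Sema3d values was not tested.

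The label of the sorted cells was compared with its markers. Ly6a, which encodes Sca-1, and Itga6, which encodes CD49f, were above background on all 6 arrays and did not pass the test. Ptprc, which encodes the gated-out CD45, was above background on all 6 arrays, at -1.54 to -1.39. Pecam1, which encodes the gated-out CD31, was above it on 2 LSC GFP+ and 3 LSC GFP- arrays, with -1.07 in LSC GFP- replicate 3. Neither passed the test. Of the 10 immune markers tested 0 passed. Of the 8 endothelial markers tested 1, or 12.5%, was lower, Vwf at -0.82, against 4.29% of all genes. Of these immune markers 9 were above background on all 6 arrays, whereas the immune genes Laptm5 and Lyz2 were above background on no array. Cdh5, Tie1 and Erg, which define endothelium, were above background on LSC GFP- replicate 3 alone. The summed immune signal was 238.7 to 318.9 in LSC GFP+ and 251.5 to 297 in LSC GFP- samples, of which Itgam alone gave 89.2% to 90.9% and the rest 25.9 to 31.4 and 26.5 to 27.1. The endothelial sum was 7.21 to 7.98 and 7.43 to 9.55, with 59.9% to 77.9% from Kdr.

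Genes that work with semaphorin receptors were described as 4 lists, and the shares of all genes tested, 3.39% higher and 4.29% lower, stand beside each. Of 16 co-receptors and other semaphorin receptors, such as Met and Erbb2, 14 were tested, 0 were higher and 2, or 14.3%, lower, with a median difference of -0.01. The lower ones were L1cam, an adhesion protein that joins neuropilin-1 in the receptor of Sema3a, by -0.99 with an unadjusted limma p of 0.00812, and Itga1, the integrin chain that partners with Itgb1, by -1.28 with 0.00036. L1cam read -1.07, -1.29 and -0.58 in LSC GFP+ and 0.37, -0.42 and 0.07 in LSC GFP- samples, and Itga1 -3.69, -4.07 and -4.24 against -2.60, -2.81 and -2.77. Neither overlapped between the populations.

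The VEGF receptors Kdr and Flt1 differed by 0.02 and 0.84 and did not pass. Of 5 VEGF family ligands 4 were tested, and 1, or 25%, was higher, Pgf, placental growth factor, by 1.28, with a limma p of 0.00115 and an adjusted p of 0.148. It read 1.18, 0.51 and 0.38 in LSC GFP+ and -0.45, -0.75 and -0.55 in LSC GFP- samples, without overlap. Vegfa, the main ligand of the family, differed by -0.23.

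Of 29 genes for plexin effectors in the cytoplasm 28 were tested, 2, or 7.14%, were higher and 0 lower, with a median difference of -0.04. Rnd1, a small GTPase that binds plexins, was higher by 0.96 with an unadjusted limma p of 0.0157, at -1.52, -1.72 and -0.83 in LSC GFP+ and -1.94, -2.77 and -2.24 in LSC GFP- samples. Fyn, a kinase used by Sema3a signalling, was higher by 0.67 with 0.0236, at -2.38, -2.71 and -2.03 against -2.80, -3.21 and -3.12. In both genes the populations did not overlap. The collapsin response mediators Dpysl2, Dpysl3 and Crmp1 differed by -0.25, -0.84 and -0.78 and did not pass.

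All 7 proteases that can cleave semaphorins were tested, 1, or 14.3%, was higher and 0 lower. Pcsk6, a proprotein convertase, was above background on the 3 LSC GFP+ arrays and on no LSC GFP- array. It read -3.77, -3.205 and -4.061 in LSC GFP+ and -4.025, -4.777 and -4.845 in LSC GFP- samples, and the populations overlapped. Its limma adjusted p was 0.481. With LSC GFP- signals raised to the lowest signal above background of their array, the LSC GFP+ mean was 1.65-fold higher. This value does not include the spread between samples. Pcsk6 entered the test only through the LSC GFP+ arrays, so that its direction was set in part by the filter. Among the 6 proteases above background on all arrays, 0 were higher or lower. Furin, the convertase that processes class 3 semaphorins, differed by 0.16. None of the genes in these 4 lists passed after adjustment, and the smallest adjusted p was 0.107, for Itga1.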

How the data were processed

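RNA of 3 LSC GFP+ and 3 LSC GFP- samples was amplified and labelled with Cy3 by the authors and hybridised to single-colour SurePrint G3 Mouse arrays on 1 slide with 1 scan run, so slides could not be compared. Amplification can shift the measured level of a gene. The deposited intensity of each spot came from Feature Extraction 11.0.1.1 per the file headers (10.7.3.1 in the submitters' processing notes), linear, background-subtracted, spatially detrended and not normalized between arrays. The deposited series table holds the same intensity values rounded. Probe positions are those of mm9 in the array design, and exons or untranslated parts were not looked up.

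The 75th percentile of an array was subtracted from its log2 signals, outlier spots were left out, and repeated spots were averaged per probe. Tests covered the 37005 of 55681 probes that rose well above background on every array of 1 or both populations. Per array 36651 to 42123 probes were above background, no spot was saturated, and the number of arrays limits the precision. Populations were compared with limma 3.58.1 (lmFit and eBayes, two-sided) in R 4.3.3, adjusted by Benjamini-Hochberg over all tested probes. The threshold of 0.05 on the unadjusted p follows the study's methods, whose Student test was an alternative. The fit was tested on simulated data of this comparison, with 200 of 36990 probes changed by 1.5 on the log2 scale. Of these 92.5% were found at the unadjusted threshold, 70 probes passed the adjusted one, and 5.46% of the unchanged ones were called. With the replicate block 0 of the changed probes passed the adjusted threshold. The simulated arrays varied independently, so shared deviations of same-numbered samples were not part of this test.

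Deviations of same-numbered samples from their population means correlated with r of 0.431, 0.277 and 0.668, so the numbers in the labels were taken to pair the samples, although no text states it. Of the other pairs, only LSC GFP+ replicate 1 with LSC GFP- replicate 2 exceeded 0.1, at 0.223. Same-numbered arrays were also neighbours in the same row of the slide, and the part of position in these correlations was not tested. The member genes and the lists were chosen with earlier results of these data known. By rule every member is named, and those that passed, did not overlap or had a probe of opposite sign past the threshold are given on each array, as are the pathway genes that passed. Sema3g, Sema4f, Plxna2, Plxna4, Nrp2 and other pathway genes with values were picked after these were seen. Alternatives were normexp background correction (offset 50), then quantile normalization, median scaling, the rounded table, 3 filters, the methods' t-test, an intensity trend, the replicate block, the mean over probes and each array left out.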

Additional observations from a re-analysis of the deposited data

How the results depend on the processing

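The counts of 2 genes higher and 4 lower stayed within 1.5 times of these values under most alternatives. With the replicate number as a block 7 genes were lower. With single arrays left out, the number of higher genes ranged from 1 to 2 (1 without LSC GFP+ replicate 2 or 3 or LSC GFP- replicate 2 or 3), that of lower genes from 3 to 4, and the median difference from -0.12 (without LSC GFP- replicate 3) to 0.052. The block changed no calls other than those of Nrp2, Plxna2 and Sema4f, and Plxna2 also passed in 4 other alternatives. Nrp1, Sema3a and Sema5b passed in all alternatives that could test them, and Plxnc1, Sema3b and Sema3d each missed the threshold in 4, Plxnc1 also with quantile normalization and the methods' t-test. Only differences near 0 that never passed changed sign, and the cause was not tested. Plxna3 was -0.088 with normexp, Plxnd1 -0.15 as a mean over probes, Plxnb3 0.060 and Sema3g 0.027 after quantile normalization, and Plxnb3, Sema3g, Sema4a, Sema4c and Sema4g 0.068, 0.019, 0.057, 0.032 and 0.040 after median scaling, which moved the median of all genes to 0.062. With single arrays left out, the ranges were -0.33 to 0.13 for Plxna1, -0.31 to 0.41 for Plxna3, -0.00074 to 0.14 for Plxnb2, -0.13 to 0.079 for Plxnb3, -0.059 to 0.25 for Plxnd1, -0.016 to 0.078 for Sema3f, -0.23 to 0.061 for Sema3g, -0.13 to 0.083 for Sema4a, -0.015 to 0.16 for Sema4b, -0.10 to 0.015 for Sema4c, -0.043 to 0.18 for Sema4d, -0.14 to 0.051 for Sema4g, -0.058 to 0.21 for Sema5a, -0.043 to 0.18 for Sema6c and -0.14 to 0.14 for Sema6d. With normexp background correction the differences of Nrp1, Sema5b, Plxnc1, Sema4f and Sema3d were -0.59, -0.54, -0.19, -0.51 and 0.37, more than 1.5 times smaller than the values reported, and the cause was not tested.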
